A study of Mus musculus with 12 samples.

Results

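The elastic fibre and microfibril genes were a set of 10 genes that encode elastin (Eln), the fibrillins (Fbn1, Fbn2), the interface glycoprotein emilin 1 (Emilin1), fibulins (Fbln1, Fbln5, Efemp2) and latent TGF-beta binding proteins (Ltbp1, Ltbp2, Ltbp4). They were followed in dermal fibroblasts of mouse back skin on 12 expression arrays. A gene was represented by probe sets that the platform annotation gives exactly 1 symbol, and its main value came from whichever of them was brightest on average over the 12 arrays. Of the 10 genes, 8 had such a probe set, with 16 probe sets in all, out of 18193 genes so represented. Fbn1 and Efemp2 had none under that rule, and their expression was not analysed here.

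The series compared 4 arrays of papilloma-associated fibroblasts (Pap, tumour-associated skin of InvEE mice), 4 arrays of fibroblasts of inflamed InvEE skin (InvEE) and 4 arrays of fibroblasts of normal wild-type skin (WT), and asked how dermal fibroblasts differ between these states. The InvEE line carries an activated MEK1 under the involucrin promoter, which is known to be active in differentiating keratinocytes. Expression of the transgene in the sorted cells was not tested. The mice of all 3 groups were 7-week-old males that carried a PDGFRα-H2B-eGFP allele, a nuclear reporter by which fibroblasts were sorted after enzymatic digestion of the dermis. The labels do not tie the arrays of a group to separate animals, so the p-values reflect the variation among these arrays, which may be technical.

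Elastic fibres let skin recoil after stretching. Fibrillins polymerise into microfibrils, tropoelastin is deposited on them with the help of fibulins and emilin, and lysyl oxidases cross-link it into an insoluble core. Microfibrils also bind latent TGF-beta binding proteins and thereby store the growth factor in the matrix. Most skin elastin is laid down by dermal fibroblasts.

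Array quality differed between the groups. The signal of the 3′ probe set of Gapdh exceeded that of the 5′ one by 2.73 ± 0.72 in Pap, 2.16 ± 0.77 in InvEE and 1.89 ± 0.30 in WT arrays (log2, SD, n = 4), a gap that is larger in more degraded or shortened RNA. The poly-A spike controls averaged 10.98 ± 1.05 in Pap, 8.15 ± 0.34 in InvEE and 10.49 ± 1.20 in WT arrays (SD, n = 4). All InvEE arrays (7.79 to 8.61) lay below all Pap (9.87 to 12.37) and WT arrays (9.28 to 12.15). Whether the InvEE arrays were processed apart was not tested, beyond a fit with the spike mean as a covariate. The widest Gapdh gap of each group was in Pap array 4 (3.79), InvEE array 3 (3.29) and WT array 4 (2.33). Pap array 4 had the lowest Ltbp4, Fbln5 and Fbn2 and the highest Fbln1 and Ltbp2 values of its group, and InvEE array 3 had the highest Fbn2, Emilin1 and Ltbp1 and the lowest Fbln1 and Ltbp4 values of its own. The part of RNA quality in the differences was not tested beyond leaving these arrays out.

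In papilloma-associated fibroblasts the genes of this set moved in opposite directions. Against WT, Ltbp4 fell by 3.00, Eln fell by 2.39 and Ltbp1 fell by 1.14 on the log2 scale, while Fbn2 rose by 2.65, Emilin1 by 1.27 and Fbln5 by 1.15 (n = 4 arrays per group). Fbln1 and Ltbp2 did not pass the test. Thus 6 of the 8 measured genes passed, 3 higher and 3 lower, at an adjusted p under 0.05 by limma (Benjamini-Hochberg over all 18193 genes). Over all genes 9.65% passed, with 4.85% higher and 4.8% lower. For all 6 called genes the Pap and WT arrays did not overlap, as for 13.8% of all genes (7.22% with Pap higher and 6.56% with Pap lower). The median difference of the 8 measured genes was -0.13, against 0.04 for all genes, and their median size without regard to sign was 1.21, against 0.25 for all genes. In a sorted bulk sample, fewer cells of a type and less RNA per cell cannot be told apart.

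**Figure D1:**
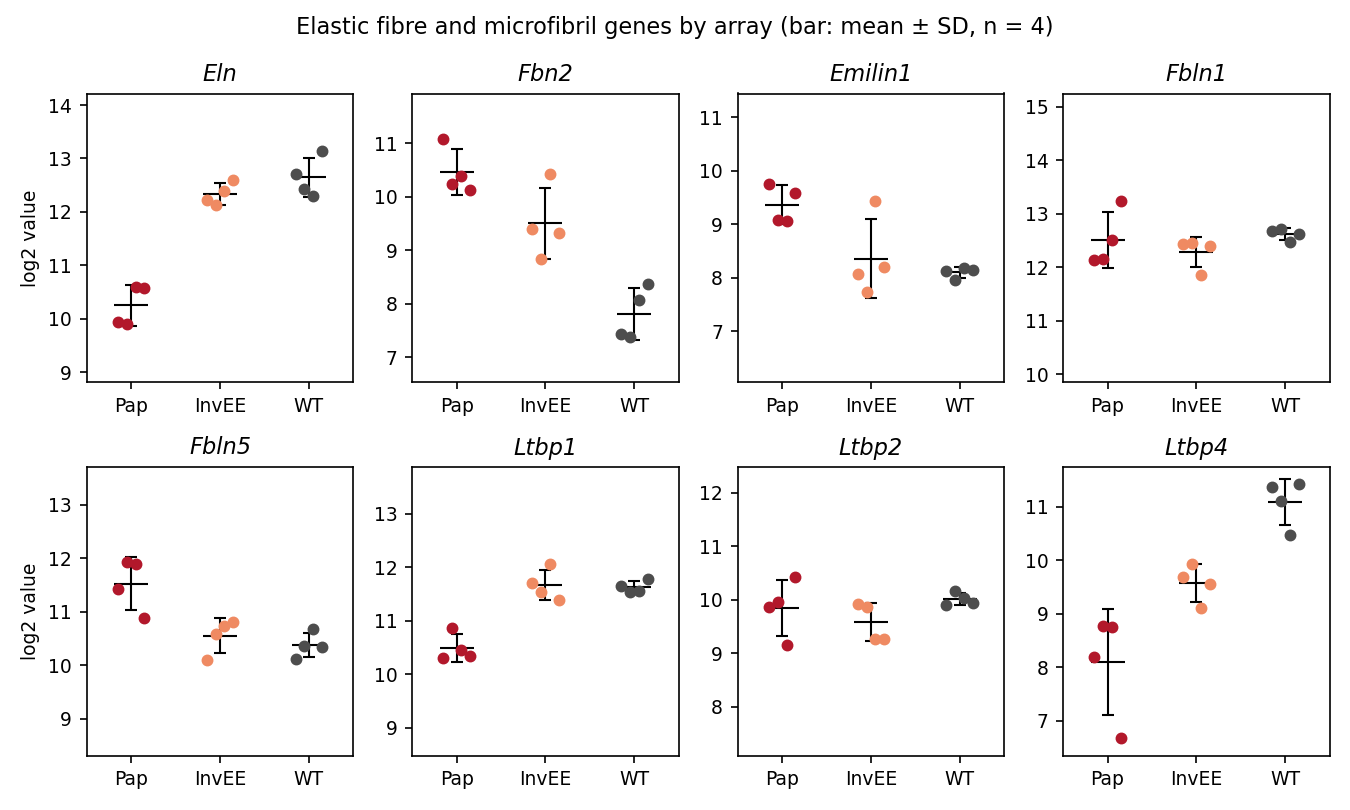
Normalized log2 value of each measured gene (vertical axis, 1 panel per gene, all panels spanning the same range) on the 4 arrays of each group (points, in replicate order), with the mean ± SD (bars). The Pap points of Eln, Ltbp1 and Ltbp4 lie below all WT points, and those of Fbn2, Emilin1 and Fbln5 lie above them.

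Eln encodes tropoelastin, the monomer of the elastic core. Its log2 values were 9.95, 9.90, 10.59 and 10.58 in Pap arrays 1 to 4, against 12.23, 12.13, 12.40 and 12.60 in InvEE arrays and 12.71, 12.44, 12.31 and 13.14 in WT arrays. All Pap values lay below all others, and the InvEE and WT values overlapped. Eln fell 5.25-fold in Pap against WT (-2.39 ± 0.23, log2 difference ± SE; adjusted p = 5.5e-05 by limma), and 4.25-fold against InvEE (-2.09 ± 0.23, adjusted p = 0.00027 by limma). The difference between InvEE and WT was -0.31, with a 95% interval of -0.80 to 0.19 (adjusted p = 0.519 by limma). A second Eln probe set, with a mean of 10.10 over the arrays, gave -2.50 ± 0.26 for Pap against WT and -2.04 ± 0.26 for Pap against InvEE. It passed in both, where 8.89% and 5.98% of 34945 probe sets were called.

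Fbn2 encodes fibrillin 2, the fibrillin typical of developing microfibrils. Fbn2 stood at 11.09, 10.25, 10.39 and 10.12 in Pap arrays, against 9.40, 8.84, 10.43 and 9.32 in InvEE arrays and 7.43, 7.38, 8.07 and 8.37 in WT arrays. The WT values were the lowest without overlap, whereas InvEE array 3 reached into the Pap range. Fbn2 rose 6.26-fold in Pap against WT (2.65 ± 0.35, adjusted p = 0.00053 by limma). In InvEE it stood 1.69 ± 0.35 above WT (adjusted p = 0.0616 by limma), just short of the threshold, and Pap stood 0.96 ± 0.35 above InvEE (adjusted p = 0.112 by limma). The first passed without Pap array 4 (adjusted p = 0.0456), and the second passed without InvEE array 3, at 1.27.

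The other Fbn2 probe set ran in the same order with wider steps. Its means were 10.11 ± 0.52 in Pap, 8.84 ± 0.52 in InvEE and 5.71 ± 1.33 in WT arrays (SD, n = 4). It gave 4.40 ± 0.55 for Pap against WT and 3.13 ± 0.55 for InvEE against WT, and both passed among all probe sets (adjusted p = 0.00045 and 0.0382 by limma, where 0.415% of probe sets were called for InvEE against WT). Its WT mean lay under 6.16, the limit below which the lowest 40% of probe-set means fall, so the size of these steps depends on a background correction that is not given in the sources used here.

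Emilin1 encodes a glycoprotein found between the elastin core and its microfibrils. Its values were 9.76, 9.07, 9.06 and 9.59 in Pap arrays, against 8.06, 7.73, 9.43 and 8.19 in InvEE arrays and 8.12, 7.96, 8.18 and 8.14 in WT arrays. All Pap values exceeded all WT values, and 1 InvEE array, array 3, stood within the Pap range. Emilin1 rose by 1.27 ± 0.31 in Pap against WT (adjusted p = 0.0236 by limma). That call ended when Pap array 1 (1.14), Pap array 4 (1.19), WT array 1 (1.27) or WT array 2 (1.22) was left out, with adjusted p between 0.0507 and 0.0661. The other Emilin1 probe set gave 0.22 ± 0.18 and was not called.

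Fbln5 encodes fibulin 5, which binds tropoelastin and guides it onto microfibrils. In Pap arrays it stood at 11.41, 11.93, 11.88 and 10.88, against 10.09, 10.58, 10.73 and 10.81 in InvEE arrays and 10.12, 10.36, 10.67 and 10.33 in WT arrays. The Pap values lay above all others, though Pap array 4 exceeded the highest InvEE array only slightly. Fbln5 rose 2.23-fold against WT (1.15 ± 0.25, adjusted p = 0.0114 by limma). Against InvEE it rose by 0.97 ± 0.25 (adjusted p = 0.0354 by limma), a call that ended without Pap array 1, 2 or 3, InvEE array 1, 2 or 4, or WT array 2 (0.82 to 1.06). A second and dim Fbln5 probe set gave 1.20 ± 0.42 against WT and 1.26 ± 0.42 against InvEE, neither called.

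Fbln1, or fibulin 1, a fibulin of basement membranes and elastic fibres, lay between 12.13 and 13.24 in Pap arrays, 11.86 and 12.45 in InvEE arrays, and 12.47 and 12.71 in WT arrays. Its differences were -0.11 (95% interval -0.62 to 0.41) for Pap against WT and -0.33 (-0.84 to 0.18) for InvEE against WT. The sign of the first turned without Pap array 1 or Pap array 2, to at most 0.017. Its other probe sets gave -0.61 and -0.50 for Pap against WT, also without a call.

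Ltbp4 encodes the latent TGF-beta binding protein that works with fibulin 5 in elastic fibre assembly. Its values were 8.19, 8.77, 8.76 and 6.67 in Pap arrays, against 9.70, 9.94, 9.11 and 9.56 in InvEE arrays and 11.37, 11.11, 10.47 and 11.42 in WT arrays. The 3 groups were fully separated, with Pap lowest, InvEE between and WT highest. Ltbp4 fell by 3.00 ± 0.41, or 7.98-fold, in Pap against WT (adjusted p = 0.00082 by limma), and without the low Pap array 4 the difference was -2.52. The difference of InvEE from WT was -1.52 ± 0.41 and that of Pap from InvEE -1.48 ± 0.41, with adjusted p of 0.123 and 0.0543 by limma, so the neighbouring steps did not pass. Without Pap array 4 both passed, since InvEE fell by 1.52 against WT (adjusted p = 0.0235) and Pap fell by 1.00 against InvEE (adjusted p = 0.04996). The step from InvEE to Pap also passed without Pap array 2 (-1.71) or Pap array 3 (-1.70). Ltbp4 had 1 probe set.

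Ltbp1 encodes a binding protein that holds latent TGF-beta on microfibrils. It stood at 10.30, 10.86, 10.45 and 10.34 in Pap arrays, against 11.70, 11.53, 12.05 and 11.39 in InvEE arrays and 11.65, 11.53, 11.55 and 11.77 in WT arrays. Every Pap array lay below every other array, and InvEE and WT overlapped. Ltbp1 fell 2.21-fold against WT (-1.14 ± 0.18, adjusted p = 0.0018 by limma) and 2.27-fold against InvEE (-1.18 ± 0.18, adjusted p = 0.0022 by limma). The fall rests on the brightest probe set, since the other Ltbp1 probe sets gave -0.31 and -0.59 against WT without a call. The mean of all 3 gave -0.68 (adjusted p = 0.0729). Shifting each array by its ribosomal protein mean gave -0.84 against WT (adjusted p = 0.0731) and -0.73 against InvEE (adjusted p = 0.0791), so that both calls ended.

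Ltbp2, a microfibril-bound relative that does not bind latent TGF-beta, ranged from 9.15 to 10.42 in Pap arrays, 9.27 to 9.92 in InvEE arrays and 9.90 to 10.16 in WT arrays. Its differences were -0.16 (95% interval -0.71 to 0.39) for Pap against WT and 0.27 (-0.28 to 0.82) for Pap against InvEE. Without Pap array 3 the first was 0.074.

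The sequences before the starts of these genes were read from RefSeq's promoter table, on build GRCm38.p6, as windows of 300 bases with 250 before and 50 after the start. For the genes of the set, windows on 1 chromosome were filtered out, a filter not applied to the windows of the whole table. This left 15 windows of 8 of the 10 genes, some of which overlap. Eln had no window in the table before that filter, and Fbn2 had none among the windows kept. Both genes are named only, so their motifs were not searched. Ltbp4, with the largest fall in Pap among the 8 measured genes, is shown with 2 of its 3 windows, 1 at each start region. Beside it are a window of Ltbp1, which also fell, and one of Fbln5, which rose. Capitals mark every GC box, the letters GGGCGG on either strand.
Ltbp4 first start, chr7:27337563-27337862, minus strand: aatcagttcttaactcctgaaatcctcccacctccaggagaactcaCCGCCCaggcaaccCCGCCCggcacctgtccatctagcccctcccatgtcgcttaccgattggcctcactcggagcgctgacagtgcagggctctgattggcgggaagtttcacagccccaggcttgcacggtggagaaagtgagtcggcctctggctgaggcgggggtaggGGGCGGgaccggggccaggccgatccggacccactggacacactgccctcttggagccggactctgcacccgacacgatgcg
Ltbp4 second start, chr7:27333599-27333898, minus strand: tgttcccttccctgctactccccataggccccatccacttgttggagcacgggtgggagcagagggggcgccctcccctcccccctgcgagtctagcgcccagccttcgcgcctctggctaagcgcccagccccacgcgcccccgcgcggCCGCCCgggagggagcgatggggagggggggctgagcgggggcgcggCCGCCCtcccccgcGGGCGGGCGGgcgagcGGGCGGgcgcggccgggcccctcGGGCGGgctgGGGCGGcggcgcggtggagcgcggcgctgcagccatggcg
Ltbp1, chr17:75005279-75005578, plus strand: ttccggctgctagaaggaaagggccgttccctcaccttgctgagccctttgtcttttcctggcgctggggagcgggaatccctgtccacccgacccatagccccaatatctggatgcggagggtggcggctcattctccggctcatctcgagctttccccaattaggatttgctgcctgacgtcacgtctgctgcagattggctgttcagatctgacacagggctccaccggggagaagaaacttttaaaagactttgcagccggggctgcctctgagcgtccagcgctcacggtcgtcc
Fbln5, chr12:101819070-101819369, minus strand: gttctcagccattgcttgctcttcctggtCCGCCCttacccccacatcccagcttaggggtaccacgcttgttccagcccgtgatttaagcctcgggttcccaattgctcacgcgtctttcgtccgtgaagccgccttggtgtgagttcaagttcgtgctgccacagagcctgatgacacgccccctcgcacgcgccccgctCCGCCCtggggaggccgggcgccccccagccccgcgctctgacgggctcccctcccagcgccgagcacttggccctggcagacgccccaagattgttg

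The Ltbp4 windows shown held 3 and 7 GC boxes, some of which overlap, and the Fbln5 window held 2. The Ltbp4 window not shown overlaps the second, held 9 and was 81.3% G and C. GC boxes occurred in 10 of the 15 windows, in 6 of 8 genes, and in 35.7% of 32851 promoter windows of the table. Fbn1 and Efemp2 are among these 6 genes though their expression was not measured, and Eln and Fbn2 are not among these 8. The second Ltbp4 window was 80.3% G and C, against 64.3% in the first, and the Ltbp1 window shown, which held no GC box, was 58.7% G and C. The other 4 motifs, searched on both strands, were in none of the 15 windows. Of all windows, 13.6% held the TATA box (TATAAA), 5.2% held the AP-1 motif (TGAGTCA or its complement), 0.213% held the SMAD motif (GTCTAGAC) and 14.7% held the TEAD motif (GGAATG). These matches describe letters in the windows and do not show binding.

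**Figure D2:**
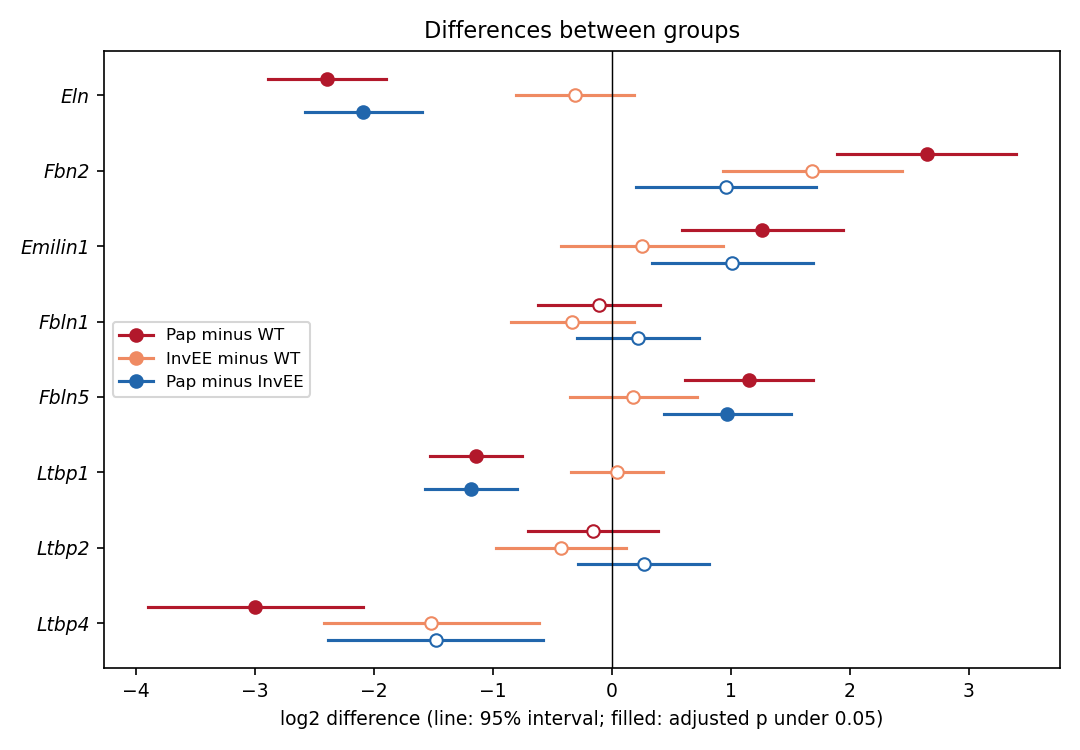
Log2 difference of each measured gene (horizontal axis) in 3 comparisons, with its 95% interval (lines). Filled points passed at an adjusted p under 0.05. Eln and Ltbp1 differ in both comparisons with Pap and lie near 0 for InvEE minus WT, whereas for Fbn2 and Ltbp4 the InvEE minus WT interval lies away from 0.

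In inflamed InvEE skin no gene of the set passed against WT by limma, where 0.533% of all genes were called. At an unadjusted p under 0.05, 2 of the 8 did, Fbn2 upward and Ltbp4 downward, where 15.6% of all genes did. The InvEE and WT values did not overlap for 3 genes, as for 15.3% of all genes. Fbn2 was higher (5.07% of all genes), and Ltbp4 and Fbln1 were lower (10.2% of all genes). For Fbln1 the gap was narrow, from 12.45 in the highest InvEE array to 12.47 in the lowest WT array. The InvEE means of Fbn2 and Ltbp4 lay between those of Pap and WT. The genes' median was -0.13, against -0.09 over all genes.

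Pap and InvEE fibroblasts differed in 3 of the 8 genes, Eln and Ltbp1 lower and Fbln5 higher in Pap, where 6.71% of all genes were called, 3.67% higher and 3.04% lower. After shifting each array by its ribosomal protein mean, 3 were higher and 1 lower, and with arrays centred on their median 2 were higher and 2 lower. The shares of all genes just given are of the main model and do not apply to these counts. Under the ribosomal shift the median of all genes was 0.55, against 0.12 in the main model. Emilin1 stood 1.01 ± 0.31 above InvEE (adjusted p = 0.0739 by limma), and without InvEE array 3 it stood 1.37 above and passed. Pap and InvEE arrays did not overlap for 4 genes, as for 21.1% of all genes. These were Eln, Ltbp1 and Ltbp4 (lower, 6.66% of all genes) and Fbln5 (higher, 14.5% of all genes). The comparisons of Pap and InvEE with WT share the WT arrays, and both comparisons with Pap share the Pap arrays.

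Without Pap array 4, InvEE array 3 and WT array 4 together, 6 of the 8 genes passed for Pap against WT, again 3 higher and 3 lower, with Eln at -2.34, Fbn2 at 2.95 and Ltbp4 at -2.41. Without these arrays 12.6% of all genes passed for Pap against WT. For Pap against InvEE 6 of the 8 genes passed without them (11.3% of all genes), and for InvEE against WT 1 did (0.896% of all genes).

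**Figure D3:**
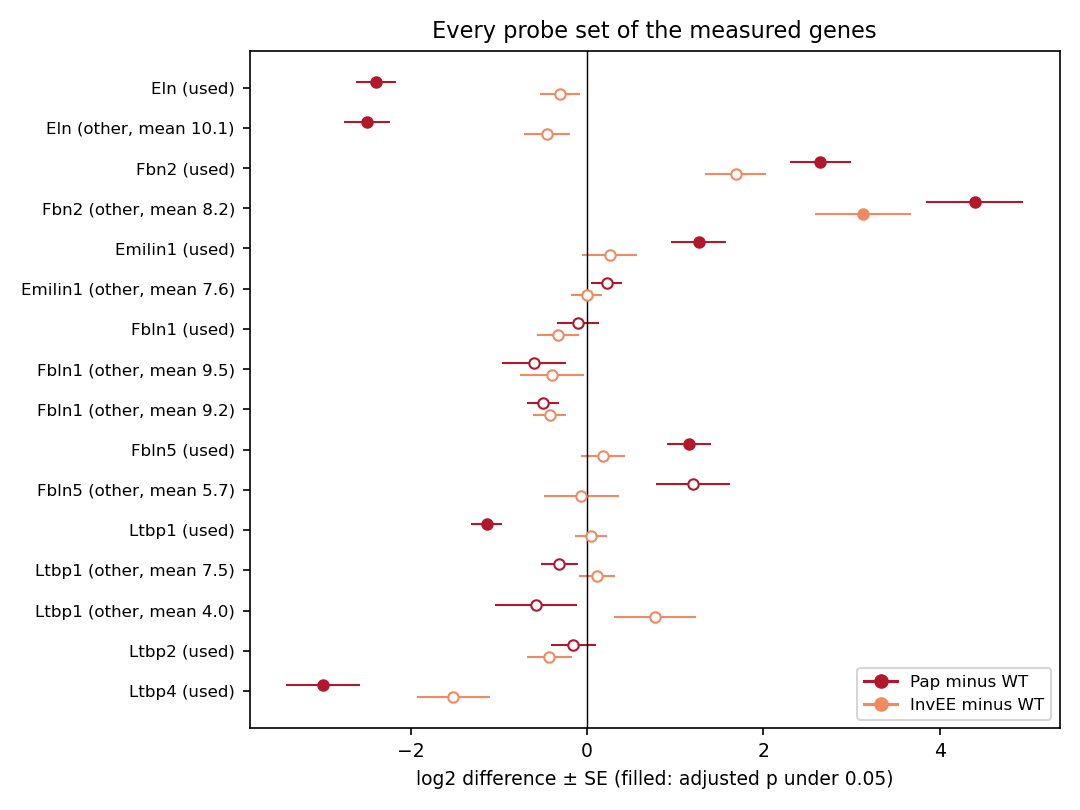
Log2 difference ± SE (horizontal axis) of all 16 probe sets of the 8 genes, for Pap minus WT and InvEE minus WT. Filled points passed at an adjusted p under 0.05 over all probe sets, and the mean log2 value over 12 arrays is given for probe sets other than the one used. The probe sets of Eln and of Fbn2 run the same way, whereas the Emilin1, Fbln5, Ltbp1 and Ltbp4 calls rest on 1 probe set each. Ltbp4 has no other probe set. For Pap minus WT the other probe set stands at 1.20 for Fbln5 and 0.22 for Emilin1, neither called.

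Around these genes, 7 lists of 64 genes of the elastic fibre pathway were followed, of which 58 were measured. In Pap against WT 11 were higher and 7 lower (9.65% of all genes were called), in Pap against InvEE 14 were higher and 4 lower (6.71% of all genes), and in InvEE against WT 1 was higher (0.533% of all genes). A list with 1 call among 8 or 9 genes is near those shares. Other members of the families split as well. Of 9 such genes Fbln2, a fibulin that binds fibrillin and elastin, rose by 1.38 ± 0.26 in Pap against WT and by 1.68 ± 0.26 against InvEE (0.32 and 0.69 on its other probe set, not called). Efemp1, or fibulin 3, fell by 2.23 ± 0.50, with means of 10.07 ± 1.34 in Pap and 12.29 ± 0.19 in WT arrays (SD, n = 4). Mmrn2, a relative of the emilins made by endothelium, passed as lower against InvEE with a dim Pap mean, and its 3 other probe sets (-0.76 to -0.13) were not called.

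Among 12 measured microfibril-associated proteins and assembly proteases 3 fell in Pap against WT and none rose. Adamts10, a metalloprotease that binds fibrillin, fell by 3.24 ± 0.52 (-2.21 on its other probe set, also called) and also fell against InvEE by 2.48 ± 0.52. Adamtsl5 and Adamtsl4, which are ADAMTS-like proteins of microfibrils, fell by 1.83 ± 0.35 and 1.25 ± 0.25. They stood at -1.68 and -1.03 in InvEE against WT and at -0.15 and -0.22 in Pap against InvEE, none of these called. Against InvEE the proteoglycan gene Bgn rose by 0.56 ± 0.12. Thsd4, or ADAMTS-like 6, passed as lower, but its Pap mean was dim and its other probe set stood at 0.16, so no size is given. The list's median was -0.32 in Pap against WT, where the median of all genes was 0.04.

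Of 8 measured cross-linking and secretion genes 1 rose in Pap against WT. Loxl3, a lysyl oxidase, rose by 2.76 ± 0.24, with means of 10.35 ± 0.17 in Pap, 8.59 ± 0.58 in InvEE and 7.59 ± 0.16 in WT arrays (SD, n = 4). It rose by 1.76 ± 0.24 against InvEE as well. Loxl1, the lysyl oxidase most tied to elastin through fibulin 5, rose by 0.97 ± 0.22 against InvEE and stood at 0.69 ± 0.22 against WT (adjusted p = 0.0678 by limma). Its other probe set passed against InvEE too (1.45). The list's median in Pap against WT was 0.29.

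Of 9 elastin-degrading proteases Mmp9, gelatinase B, rose by 1.75 ± 0.27 in Pap against WT (3.88 on its other probe set, also called) and by 1.95 ± 0.27 against InvEE. Against InvEE the membrane protease Mmp14 rose by 1.02 ± 0.17 and the lysosomal cathepsin Ctsl by 0.74 ± 0.20, the second not called on its other probe set (0.21). The list's median in Pap against WT was 0.10. Mmp12, the macrophage elastase, stood at 0.22 ± 0.16 (adjusted p = 0.468 by limma).

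Of 11 receptors for the matrix of these fibres 4 were higher and 1 was lower in Pap against WT, and 6 did not pass. Against InvEE 4 were higher and 1 lower as well. Itgb3, the beta 3 integrin chain that pairs with alpha v on fibrillin and fibulin 5, rose by 2.36 ± 0.25 against WT and 2.43 ± 0.25 against InvEE, and its other probe set passed too (1.18 and 1.48). Itga8, the alpha 8 chain, rose by 3.02 ± 0.60 and Itgav by 1.34 ± 0.26 against WT, Itgav with 4 other probe sets from -0.40 to 0.86, 1 of them called the same way. Itga8 stood at 2.43 in InvEE against WT and at 0.59 in Pap against InvEE, neither called. Lgals3, an elastin-binding lectin, fell by 1.55 ± 0.45 in Pap against WT. Against InvEE, Itgb1 rose by 1.25 ± 0.25, though none of its 5 other probe sets passed (0.29 to 1.00). Itgb5 rose by 0.77 ± 0.18 and Ctsa, protective protein of the elastin receptor, rose by 0.82 ± 0.18 (-0.97 on its other probe set, not called). Itgb8 passed as lower, but its mean was under the dim limit in all 3 groups, so no size is given. The list's median in Pap against WT was 0.46.

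Of 4 measured genes of latent TGF-beta, the ligand gene Tgfb2 fell by 1.08 ± 0.23 in Pap against WT (1 of its 3 other probe sets passed, -1.13 to -0.81) and Tgfb3 rose by 1.45 ± 0.34 against InvEE. All 5 measured TGF-beta target genes passed in Pap against WT, 4 higher and 1 lower. The feedback inhibitor Pmepa1 rose by 2.67 ± 0.16, the matricellular gene Ccn2 by 2.66 ± 0.34 and the corepressor Skil by 1.32 ± 0.33, whereas Tgfbi fell by 1.51 ± 0.22 on the probe set used, with all 3 others called lower too. The other probe set of Skil gave 0.31 and was not called. In InvEE against WT Skil stood at 1.41, Tgfbi at -1.07 and Tgfb2 at -0.83 on the probe sets used, none called. In Pap against InvEE they stood at -0.09, -0.44 and -0.26, also not called. The other Skil probe set passed in both of these comparisons (0.97 and -0.66). Pmepa1 also rose in InvEE against WT, by 0.87 ± 0.16, with 0.61 to 0.79 and no call on its other probe sets. Pmepa1 and Ccn2 also rose in Pap against InvEE, by 1.80 ± 0.16 and 1.52 ± 0.34.

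**Figure D4:**
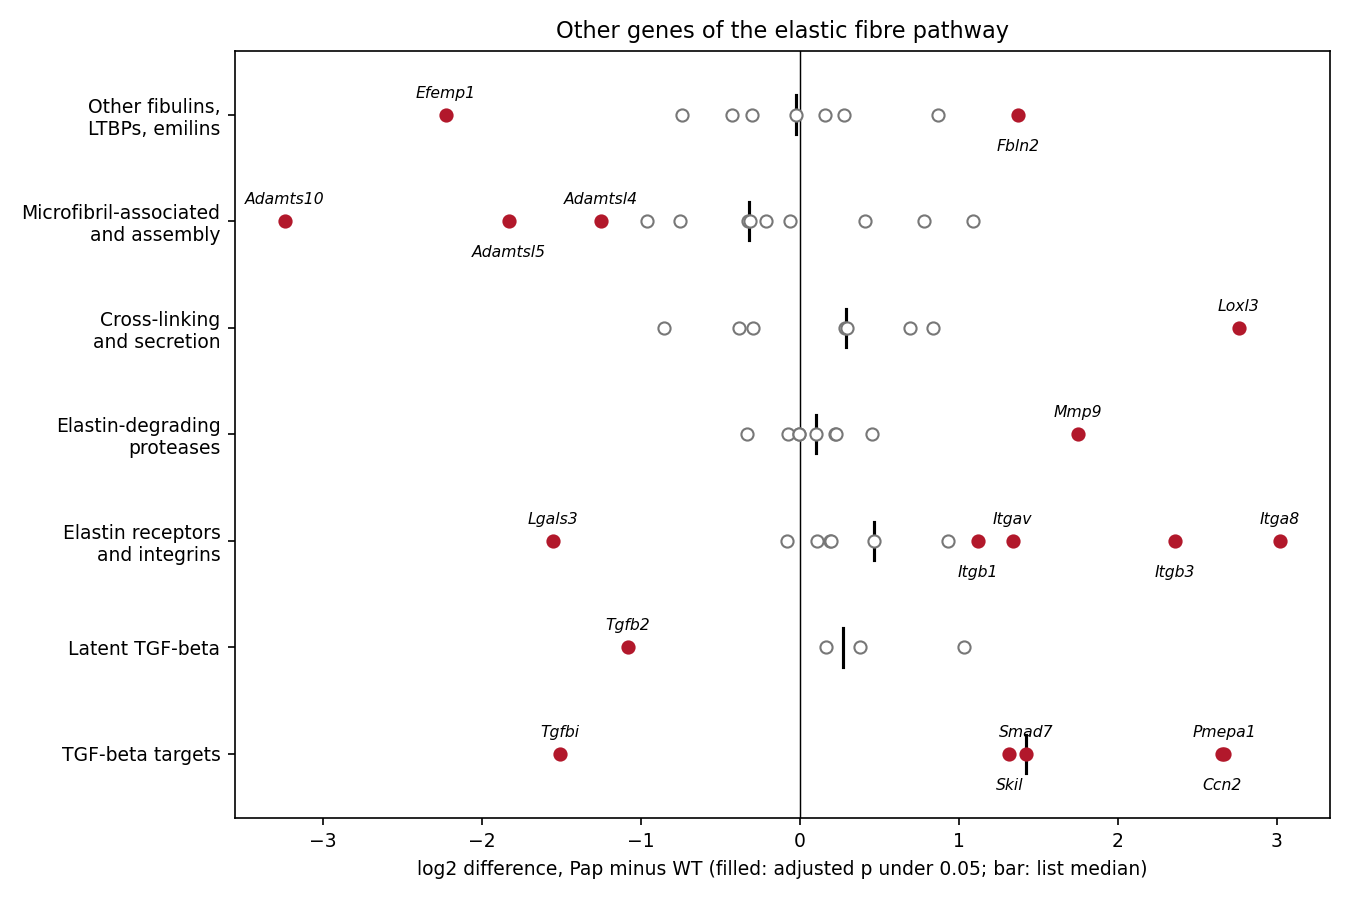
Log2 difference of Pap minus WT (horizontal axis) for 58 measured genes in 7 lists (rows). Filled and named points passed at an adjusted p under 0.05, open points did not, and bars mark list medians. The assembly list has its 3 called genes on the lower side, and the receptor list has 4 of its 5 called genes on the higher side.

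Genes with the most similar pattern were sought for the 6 genes called in Pap against WT, by the smallest root mean square difference over the 12 arrays after centring each gene, among 12879 genes that were not dim. For Eln these were Mrpl19 (0.26), Emid1 (0.38) and Serpina3n (0.39), where Emid1 encodes an EMI-domain protein and Serpina3n a serine protease inhibitor. The 3 other probe sets of Mrpl19, a mitochondrial ribosomal protein, gave 0.14 to 0.38 for Pap against WT, opposite in sign to the -2.28 of the one used. For Fbn2 they were Cyp51 (0.35) and Hmgcs1 (0.47), both enzymes of sterol synthesis, and Igdcc4 (0.43). Probe sets of opposite sign in Pap against WT were also present for Igdcc4 (1 of 3 others), Asph (2 of 5) and Tmem248 (1 of 2). The nearest to Ltbp4 were Mir99ahg (0.39), Pard3b (0.41) and Plekha5 (0.42), and those nearest to Ltbp1 were Hoxc4 (0.19), Hnrnph1 (0.23) and Arhgap32 (0.24). Emilin1 lay nearest to Frmd6 (0.21), Asph (0.22) and 2510039O18Rik (0.25), and Fbln5 to Scd2 (0.25), Npl (0.25) and Tmem248 (0.26). Within the set itself the closest pair was Fbln1 and Ltbp2 (0.32), the 2 genes without a call, and Eln lay nearest to Ltbp1 (0.64). Values were centred but not scaled, so genes that change little lie close by this measure whatever their pattern.

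The arrays carried the sorted cell type's markers. All 7 fibroblast markers were above the dim limit in each group, and the log2 of their summed signal lay between 16.47 and 16.56 in Pap, 16.22 and 16.52 in InvEE and 16.54 and 16.57 in WT arrays. That sum is weighted to the brightest markers, such as Col1a1 and Col1a2 (means of 14.48 and 14.54 in Pap arrays), and shows little of the others. Pdgfra was higher in Pap against WT (0.93, called on neither of its 2 other probe sets, 1.09 and 1.75). Pdgfrb was higher in Pap against InvEE (0.55, and 1.06 on its other probe set, also called). Smooth muscle and pericyte markers, from cells that also make elastin, had summed levels of 10.46 to 10.92 in Pap, 10.92 to 11.35 in InvEE and 11.97 to 12.08 in WT arrays. The sum followed Kcnj8, whose means were 7.07 in Pap, 9.22 in InvEE and 11.08 in WT arrays. Of these 9 markers Kcnj8 and Abcc9 fell and Cnn1, dim in InvEE and WT, rose in Pap against WT. In Pap against InvEE Kcnj8 (-2.14), Cspg4 (-1.34) and Notch3 (-1.31, not called on its other probe set) were lower and Cnn1 (2.29) was higher. Kcnj8 was also lower in InvEE against WT (-1.86). Myh11, smooth muscle myosin, averaged 7.39 in Pap, 7.17 in InvEE and 7.41 in WT arrays. Leukocyte markers summed to 9.98 to 11.02 in Pap, 10.32 to 11.56 in InvEE and 11.88 to 12.15 in WT arrays, and the sum followed Csf1r (means of 9.62 in Pap, 10.49 in InvEE and 11.77 in WT arrays), the 1 of 8 that fell in Pap against WT. Ptprc, Adgre1 and Itgam were dim in all groups. Keratinocyte markers summed to 10.33 to 12.25 in Pap, 11.48 to 12.70 in InvEE and 10.05 to 10.40 in WT arrays, with 2 of 9, Krt14 and Dsp, higher in Pap against WT on the probe set used and on neither of the 2 others of each. In InvEE against WT Krt15 (1.89) and Perp (3.50, dim in WT) were higher, and Krt15 was lower in Pap against InvEE (-2.16). No endothelial, Schwann cell, adipocyte or skeletal muscle marker passed in Pap against WT. The part of these cells in the differences of Eln, Ltbp4 and Fbn2 was not tested.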

How the data were processed

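Per the labels' protocols, RNA of sorted fibroblasts was amplified once (NuGEN Pico), biotin-labelled and hybridised to Affymetrix arrays. The authors deposited log2 values, 1 per probe set and array (45101 probe sets, 64 of them controls). Per the submitters' processing notes limma was used. How probes were summarised, corrected and normalized is not given in the sources used here. Lower quartiles of the arrays spanned 0.284 and upper quartiles 0.276, so quantile normalization was applied, by a rule asking for it above 0.1. No pair of arrays shared over 0.253% identical values, and correlations within groups lay between 0.890 and 0.987, so no array was a copy of another. Each array was counted separately, though these values cannot show that the arrays came from separate animals. Precision is limited by the number of arrays.

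Symbols came from the platform annotation (34945 probe sets with 1 symbol, 932 with several), and all 8 measured members matched a current gene entry. One model with 3 group means was fitted to the 12 arrays with limma 3.58.1 in R 4.3.3 (lmFit, eBayes, two-sided, Benjamini-Hochberg over 18193 genes, called at adjusted p under 0.05), and was tested on simulated data. Dim means a mean under 6.16. The main model held no pairing by replicate number. Deviations from group means correlated between -0.09 and 0.18 for arrays of the same number, and pairs of different number were not compared. The poly-A spike means ranked alike by number in Pap and WT, highest in array 4 (12.37 and 12.15) and lowest in array 3 (9.87 and 9.28). Shared processing of arrays with the same number was not tested beyond a replicate block. The named genes were all members, up to 3 called genes per direction of each list by smallest p in Pap against WT, any called gene in the other comparisons, and 3 genes of most similar pattern for each called member. Cell markers were given beside them. Members and lists were chosen with earlier results of these data known.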

Additional observations from a re-analysis of the deposited data

Results flagged for a closer look

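Of 24 groups of 4 values (8 genes in 3 groups), 1 held a value set apart from the others. Fbln1 was 11.86 in InvEE array 3, against 12.40 to 12.45 in the other InvEE arrays, a gap of 0.908 of the whole range, beyond Dixon's critical value for 4 samples. Chance flags about 1 in 20 such groups. InvEE array 3 also had the highest 3′ to 5′ difference of Gapdh in its group, 3.29.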

How the results depend on the processing

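Over 24 differences of single genes and 23 alternatives, 549 values were obtained. Of these 486 kept direction and side of the threshold, 16 lost a call, 25 gained one and 22 changed sign, all of the last in differences that were not called. For Pap against WT 5 or 6 genes passed under every alternative run, where 1094 to 2300 of all genes passed. The replicate block gave 6, 0 and 3 genes for Pap against WT, InvEE against WT and Pap against InvEE, as without it, and all 24 single differences kept their direction and call. For InvEE against WT 1 gene passed with the ribosomal shift, without dim genes, with the mean of all probe sets, with only the compared groups, or without the 3 arrays of highest Gapdh difference (chosen after seeing the data), and 2 with array weights. Leaving out 1 array gave 5 to 6 genes for Pap against WT, 0 to 2 for InvEE against WT (2 without Pap array 4) and 2 to 5 for Pap against InvEE (5 without InvEE array 3). Of all 18193 genes, 1259 to 1792, 0 to 249 (249 without Pap array 4) and 578 to 1581 passed in the same fits. For Pap against InvEE 6 passed with array weights or without the 3 arrays. Under the ribosomal shift the median of all genes was 0.26, -0.30 and 0.55 in the 3 comparisons, against 0.04, -0.09 and 0.12. Relative to that median Ltbp1 stood at -1.10 for Pap against WT. The cause of these changes was not tested.

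Signs changed for Fbln1 in Pap against WT (0.0813 with the ribosomal shift, -0.35 to 0.0174 leaving out 1 array) and Ltbp2 (0.14, and -0.35 to 0.0744). In InvEE against WT the spike covariate gave 0.0795 for Eln, 0.0622 for Fbln1, -0.45 for Fbln5 and 0.0698 for Ltbp2. Ltbp1 was -0.12 with the ribosomal shift, -0.0392 without the 3 arrays and -0.0876 to 0.14 leaving out 1, and Emilin1 was -0.0900 without the 3 arrays and -0.10 to 0.46. In Pap against InvEE Fbln1 was -0.0200 with all probe sets, -0.21 without _x_, _s_ and _a_ probe sets, -0.0565 with array weights, -0.25 with the spike covariate, -0.16 without the 3 arrays and -0.0210 to 0.35 leaving out 1. Ltbp2 was -0.33 with the covariate and -0.0238 without the 3 arrays.

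Over all genes, 1756, 97 and 1221 were called in the 3 comparisons. The first was 1094 with only the compared groups. The second was 0 by limma with the spike covariate (2170 genes at an unadjusted p under 0.05) or without InvEE array 1 (2222), InvEE array 2 (1967) or WT array 1 (2358). It was 13 without WT array 2, 44 without InvEE array 3, 49 without Pap array 2, 55 without Pap array 3, 57 with the replicate block, 163 without the 3 arrays, 249 without Pap array 4 and 839 with array weights. The third was 215 with the covariate, 578 without InvEE array 1, 621 without InvEE array 2, 716 without InvEE array 4, 1853 with the ribosomal shift, 2055 without the 3 arrays and 2813 with array weights. The mean of all probe sets gave 228 genes and the deposited and median-centred values 62 and 57 for InvEE against WT.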
